A study of Mus musculus with 3 samples.

Results

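Heat shock chaperone genes were followed through the cell classes of 3 mouse livers, namely Hspa1a, Hspa1b, Dnajb1, Hsph1, Hspa8, Hsp90aa1, Hspd1, Hspe1 and Bag3. They are 9 of the 55421 gene identifiers in the count tables. The genes were listed by name, as inducible and constitutive chaperones of the cytosol and of the mitochondrion, and the level of each was taken in every cell class defined by marker genes and in every library. The choice of the list also rested on an earlier view of these libraries, in which the direction differed between B cells and endothelial cells, so that direction is described here and not tested. All 3 mice were wild type and had eaten an iron-deficient diet (IDD, 2 to 6 ppm iron) for 1 week, which the control mouse shares with the others. The IDD + HTF mouse had then received 10 mg of holo-transferrin, which is transferrin carrying iron, into the tail vein, and the time from that injection to liver collection is not given in the sources used here. The IDD + HID mouse had then eaten a high-iron diet with 2% carbonyl iron for 18 h. The IDD mouse had the deficient diet alone. Each liver was dissociated with collagenase and pronase, hepatocytes and non-parenchymal cells were recombined at 5% and 95%, and the mixture was run as a droplet library that counts transcripts from their 3′ ends by unique molecular identifiers (UMIs). Each group is 1 mouse, so no difference below has been checked in a replicate, no p-value is given, and the treatment, the mouse, its dissociation and its library cannot be told apart.

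Heat shock proteins hold unfolded proteins in solution and return them to their fold. HSP70 proteins bind exposed hydrophobic stretches in cycles of ATP hydrolysis, J-domain proteins such as DNAJB1 bring them substrates, HSP110 proteins such as HSPH1 exchange the nucleotide, and HSP90 finishes the folding of kinases and steroid receptors. In the mitochondrion, HSP60 (Hspd1) forms a folding chamber with HSP10 (Hspe1) as its lid. The stress-inducible members are switched on by the heat shock factor HSF1, which binds repeats of the unit GAA in alternating orientation, and freshly dissociated tissue is known to raise some of these genes together with immediate early genes.

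The start regions of the members show where such units lie and how alike the 2 inducible HSP70 genes are, which bears on whether their counts can be told apart. Hspa1a (ENSMUSG00000091971.3) lies at chr17:34969190-34972156 and Hspa1b (ENSMUSG00000090877.3) beside it at chr17:34956436-34959238, both on the minus strand of GRCm38, and their RefSeq windows (250 bases before to 50 after the start) were equal at 296 of 300 letters. The last 130 bases before each start are given below from RefSeq GRCm38.p6, minus strand, at chr17:34972157-34972286 for Hspa1a and chr17:34959239-34959368 for Hspa1b, with the match to GAANNTTC in capitals.
Hspa1a: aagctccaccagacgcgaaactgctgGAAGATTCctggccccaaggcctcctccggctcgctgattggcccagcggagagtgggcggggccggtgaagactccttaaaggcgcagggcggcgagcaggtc
Hspa1b: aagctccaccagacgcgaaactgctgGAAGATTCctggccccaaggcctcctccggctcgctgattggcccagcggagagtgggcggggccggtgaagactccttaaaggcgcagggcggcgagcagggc
In both genes the match began 104 bases before the start. Of the 10 windows that RefSeq gave for 7 of the members, 7 windows of 6 members held GAANNTTC or TTCNNGAA, against 15.1% of 32851 RefSeq windows, and both patterns read the same on either strand. A run of 3 alternating units (GAANNTTC followed by NNGAA, or TTCNNGAA followed by NNTTC, so that a run contains both pairs) occurred in 4 of the 10 windows, those of Hspd1, Hspe1 and Hsph1, against 0.603% of all windows. These 4 windows are not separate sites: those of Hspd1 and Hspe1 overlap on the same stretch, and the 2 of Hsph1 overlap on the same run. The pair count likewise includes these overlaps and the near-equal Hspa1a and Hspa1b windows. Hspd1 and Hspe1 stand head to head on chromosome 1 (chr1:55077835-55088243, minus strand, and chr1:55088132-55091307, plus strand), and a run of 4 units lay between the Hspe1 start and an Hspd1 start 216 bases away. That stretch is shown with its units in capitals, from chr1:55088053-55088082 on the plus strand.
Hspe1: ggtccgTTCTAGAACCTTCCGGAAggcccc
In Hsph1 (chr5:149614287-149636376) the run of 3 lay after the start, at position 37 in one of its 2 windows and 16 in the other, counted from the first transcribed base. In Bag3 (chr7:128523616-128546981) the match lay at position 43. Dnajb1 (chr8:83608193-83612653) had no match in its window, and Hspa8 (chr9:40800984-40810087) and Hsp90aa1 (chr12:110690605-110702728) were not searched. These matches describe letters only.

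Counts of 3′ ends could be assigned cleanly for some members and not for others. Of the 31-letter stretches in the last 500 letters of the transcript, 85.3% for Hspa8 and 68.5% for Hspe1 also occurred in transcripts of other genes, mostly processed pseudogenes such as Gm15459 and Hspe1-ps3, so the counts of these 2 genes are uncertain. The share was 0 for Hspa1a, Dnajb1, Hsph1 and Bag3, 2.98% for Hspa1b, 1.06% for Hspd1 and 0.851% for Hsp90aa1. Hspa1a and Hspa1b therefore had separate 3′ ends, although 63.8% of the stretches of the whole Hspa1a transcript were shared with Hspa1b.

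The files held 55478904, 75404660 and 34552858 UMIs for IDD + HTF, IDD + HID and IDD, and 3203, 3538 and 1311 cells with at least 1000 UMIs each, with medians of 4449, 8596 and 3639 UMIs per cell. Each pair of libraries shared 1 cell barcode. Clusters were named from marker genes, and 6 classes had at least 50 cells in every library: sinusoidal endothelial-like (754, 1088 and 335 cells in that order), B-like (180, 461 and 91), T-like (133, 260 and 82), Kupffer-like (347, 506 and 87), hepatocyte-like (509, 228 and 145) and stellate-like (147, 125 and 143). All 13 sinusoidal endothelial markers and all 10 B markers were detected in their own class in every library. Levels are CPM, the UMIs of a gene scaled to a fixed total of UMIs of the class, and a member is called higher or lower where 2 libraries differ by at least 1.5-fold with at least 50 UMIs between them. Intervals are 95% intervals that cover counting error only, not the spread between mice.

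Summed over the 9 genes, the sum was lower than in IDD in B-like cells and higher than in IDD in endothelial-like cells of both iron-supplied livers. In B-like cells the genes together made up 6456 and 2057 CPM in IDD + HTF and IDD + HID, against 11323 CPM in IDD. In sinusoidal endothelial-like cells they made up 3731 and 3082 CPM in IDD + HTF and IDD + HID, against 2104 CPM in IDD. The IDD liver thus had its highest sum in B-like cells, and the IDD + HID liver had a lower sum in B-like cells than in endothelial-like cells. Hspa1a and Hspa1b held 60.7% and 18.9% of the B-like members' UMIs in IDD + HTF and IDD + HID, against 73.4% in IDD, so most of the difference in the sum lay in those 2 genes.

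**Figure D1:**
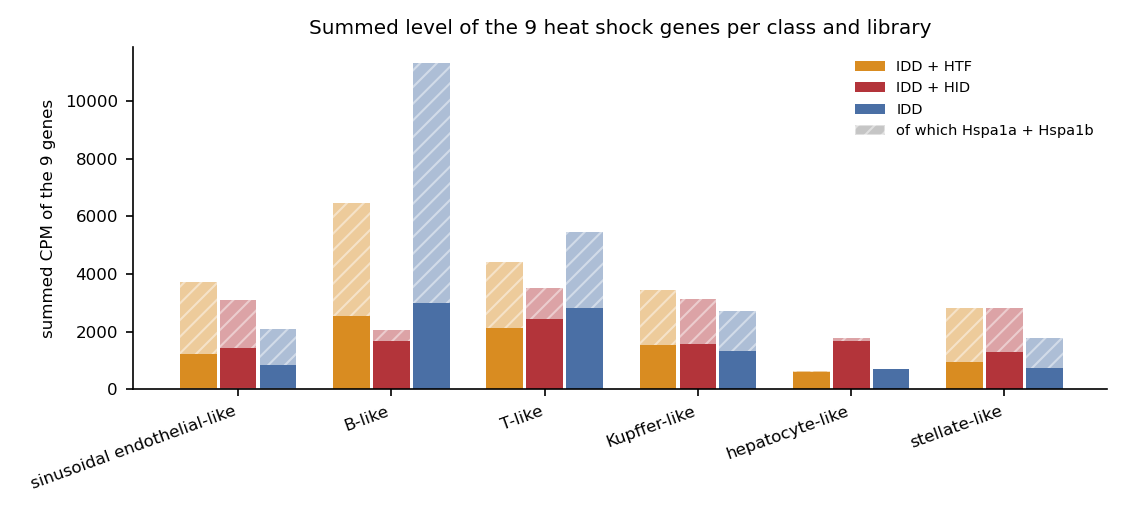
Summed level of the 9 heat shock genes (CPM, linear axis from 0) in 6 cell classes, with bars for IDD + HTF, IDD + HID and IDD and the hatched portion for Hspa1a plus Hspa1b. B-like cells range from 2057 CPM in IDD + HID to 11323 CPM in IDD. Hepatocyte-like cells are at 645 and 1793 CPM in IDD + HTF and IDD + HID, against 695 CPM in IDD.

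In B-like cells the inducible HSP70 genes showed the widest gaps among the members with at least 50 UMIs in the pair. Hspa1a had 1467 and 152 CPM in IDD + HTF and IDD + HID, with 95% intervals of 1378 to 1559 and 137 to 169, against 3710 CPM in IDD (3521 to 3907). The level was thus lower in both iron-supplied livers, 2.53-fold in IDD + HTF (2.33 to 2.74) and 24.3-fold in IDD + HID (21.6 to 27.4). Hspa1b had 2451 and 236 CPM in IDD + HTF and IDD + HID, against 4605 CPM in IDD, and was 1.88-fold (1.76 to 2.01) and 19.5-fold (17.7 to 21.5) lower. The 3 intervals of either gene did not overlap, and IDD + HID stood lowest.

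The same order was seen in the share of B-like cells with at least 1 UMI, each cell being reduced to 1000 UMIs to remove the difference in depth. For Hspa1a this share was 47.1% and 8.0% in IDD + HTF and IDD + HID, with intervals of 39.6 to 54.6 and 5.69 to 10.9, against 62.9% in IDD (52.2 to 72.8). At full depth, with median UMI counts of 3600.5 and 4567 in IDD + HTF and IDD + HID B-like cells and 4041 in IDD, the shares were 58.9% and 14.8%, against 71.4%. Hepatocyte-like cells, the class with the lowest Hspa1a level, gave thinned shares of 1.5% and 1.18% in IDD + HTF and IDD + HID, against 0.560% in IDD, with median UMI counts of 2703, 2377.5 and 2675. The IDD + HID B-like share thus lay above the hepatocyte-like share of the same library. With few cells holding any, the 10% of B-like cells with the highest fractions held 92.1% of the summed Hspa1a fraction in IDD + HID, compared with 44.8% in IDD + HTF and 37.7% in IDD.

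**Figure D2:**
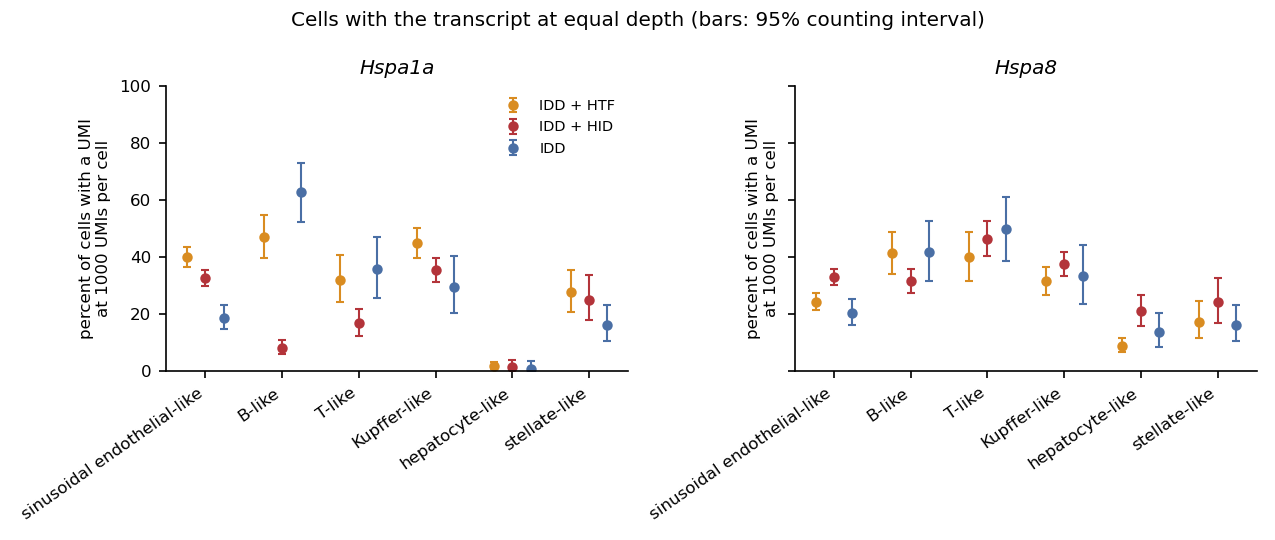
Percent of cells with at least 1 UMI of Hspa1a or Hspa8 after every cell is reduced to 1000 UMIs, in 6 cell classes, with 95% counting intervals and colours for IDD + HTF, IDD + HID and IDD. For Hspa1a the B-like share is 47.1% in IDD + HTF and 8.0% in IDD + HID, against 62.9% in IDD, and the endothelial-like share is 40.0% and 32.6%, against 18.6%.

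The co-chaperones of HSP70 differed less in B-like cells. Dnajb1, which stimulates the ATPase of HSP70, had 302.5 and 110.0 CPM in IDD + HTF and IDD + HID, against 389.6 CPM in IDD, and was 3.54-fold lower in IDD + HID (2.87 to 4.35). Hsph1, the nucleotide exchange factor, had 164 and 64.1 CPM in IDD + HTF and IDD + HID, against 126 CPM in IDD, so only the IDD + HID level lay below the control, 1.97-fold (1.40 to 2.74). Bag3, which links HSP70 to selective autophagy, had 4, 2 and 1 UMIs in IDD + HTF, IDD + HID and IDD and could not be compared at this depth.

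Of the other cytosolic chaperones, Hsp90aa1, the inducible isoform of HSP90, had 866 and 559.9 CPM in IDD + HTF and IDD + HID B-like cells, against 1290 CPM in IDD. It was 2.30-fold lower in IDD + HID (2.07 to 2.56) and, at 1.49-fold lower in IDD + HTF (1.32 to 1.68), just missed the size for a call. Hspa8, the constitutive HSC70, had 596 and 412 CPM in IDD + HTF and IDD + HID, against 668 CPM in IDD, and was 1.62-fold lower in IDD + HID (1.41 to 1.86), just past the size for a call. The mitochondrial pair did not share these gaps. Hspd1 had 167 and 158 CPM in IDD + HTF and IDD + HID, against 124 CPM in IDD, and Hspe1 had 437 and 364 CPM, against 408 CPM. For both genes the interval of the ratio to IDD included 1 in either comparison, from 0.941 to 1.76 for Hspd1 and from 0.752 to 1.06 for Hspe1 in IDD + HID.

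In all, 2 of the 8 members measured in B-like cells were called lower in IDD + HTF, where 8.26% of all 3161 measured genes were, and 0 were called higher, where 10.8% of genes were. In IDD + HID, 6 of 8 were called lower, where 8.58% of 6279 genes were, and 0 higher, where 18.8% were. The median log2 ratio of the members was -0.26 in IDD + HTF and -1.09 in IDD + HID, beside 0.03 and 0.13 over all measured genes. The B-like class was a single cluster, and its B markers summed to 14585 and 16528 CPM in IDD + HTF and IDD + HID, against 16429 CPM in IDD. RNA of other cells was higher in the iron-supplied libraries: the 11 hepatocyte markers, all detected, summed to 1752 and 2805 CPM in IDD + HTF and IDD + HID B-like cells, against 1287 CPM in IDD. Of the 13 sinusoidal endothelial markers, 12 and 13 were detected there, against 6, with sums of 271 and 442 CPM, against 193 CPM. Of the 12 Kupffer markers, 10 and 11 were detected, against 5, with 107 and 271 CPM, against 15.5 CPM. In droplets of at most 100 UMIs, which hold free RNA, Hspa1a stood at 249.5 and 249.6 CPM in IDD + HTF and IDD + HID, against 116 CPM in IDD. Hspa1a was thus higher in the free RNA of both iron-supplied livers, as it was in their endothelial-like and stellate-like cells. What free RNA added to the levels of any class was not tested beyond subtraction. With the free RNA taken off each class, the log2 ratio of Hspa1a in B-like cells was -1.38 for IDD + HTF and -4.86 for IDD + HID, beside -1.34 and -4.60 without that step.

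**Figure D3:**
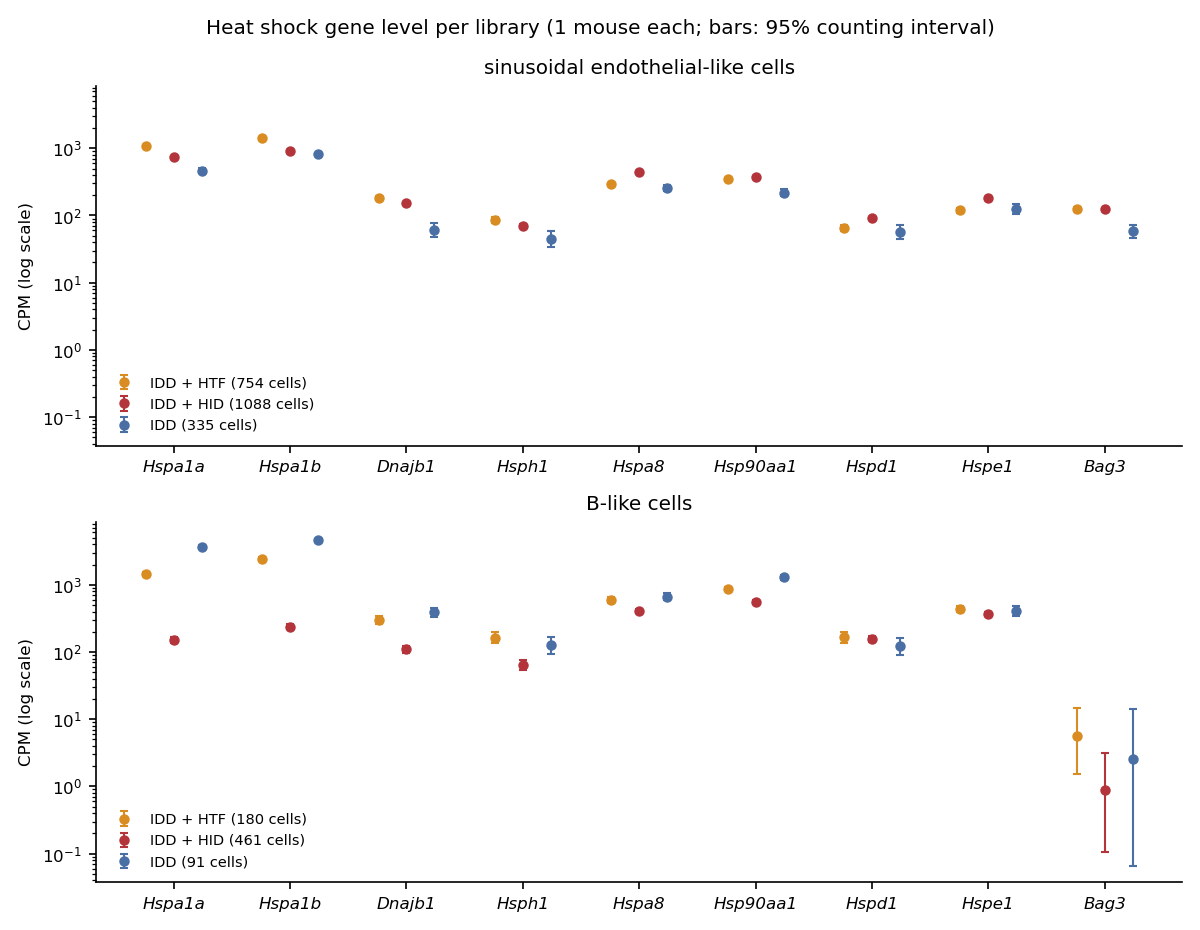
Level (CPM, log axis) of each of the 9 heat shock genes in sinusoidal endothelial-like and B-like cells, with 95% counting intervals and points for IDD + HTF, IDD + HID and IDD. In the B-like panel IDD lies above both other libraries for Hspa1a (3710 CPM), while in the endothelial-like panel it lies below them (467 CPM).

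In sinusoidal endothelial-like cells the inducible members were higher in the iron-supplied livers. Hspa1a had 1072 and 736 CPM in IDD + HTF and IDD + HID, with intervals of 1044 to 1101 and 720 to 752, against 467 CPM in IDD (430 to 506), and was 2.30-fold (2.11 to 2.51) and 1.58-fold (1.45 to 1.72) higher. Hspa1b had 1437 and 918 CPM in IDD + HTF and IDD + HID, against 811 CPM in IDD, and was 1.77-fold higher in IDD + HTF (1.66 to 1.89) and 1.13-fold higher in IDD + HID, which is no call. Between the 3 livers IDD + HTF thus had the highest level of both HSP70 genes in this class, whereas in B-like cells IDD had.

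Dnajb1 differed most among the members in this class. It had 180.5 and 153 CPM in IDD + HTF and IDD + HID endothelial-like cells, against 61.4 CPM in IDD, and was 2.94-fold (2.33 to 3.76) and 2.49-fold (1.98 to 3.18) higher. Bag3, barely detected in B-like cells, was measured here at 126 and 123 CPM, against 58.2 CPM in IDD, or 2.16-fold (1.7 to 2.79) and 2.12-fold (1.67 to 2.72) higher. Hsph1 had 85.1 and 70.5 CPM, against 45.5 CPM in IDD, and was 1.87-fold (1.42 to 2.51) and 1.55-fold (1.18 to 2.07) higher. These 3 partners of HSP70 were therefore called higher in both iron-supplied livers, but the Hsph1 call in IDD + HID was lost in 10 of the 13 other settings tried, single clusters included.

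Hsp90aa1 had 351 and 371 CPM in IDD + HTF and IDD + HID endothelial-like cells, against 219 CPM in IDD, and was 1.60-fold (1.41 to 1.82) and 1.69-fold (1.5 to 1.92) higher. Hspa8 and the mitochondrial Hspd1 were called in IDD + HID alone. Hspa8 had 294 and 439 CPM in IDD + HTF and IDD + HID, against 258 CPM in IDD, with ratios of 1.14 and 1.7. Hspd1 had 66.0 and 90.7 CPM, against 57.4 CPM, with ratios of 1.15 and 1.58. Hspe1, at 119.8 and 180.3 CPM against 125 CPM in IDD, had ratios of 0.956 and 1.44 and was not called. Hspa8, Hspd1 and Hspe1 were thus the members without a call in IDD + HTF.

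In all, 6 of 9 members were called higher in IDD + HTF endothelial-like cells, where 9.97% of 10309 measured genes were, and 0 lower, where 9.79% were. In IDD + HID, 7 of 9 were called higher, where 14.6% of 11855 genes were, and 0 lower, where 19.3% were. The median log2 ratio of the members was 0.83 in IDD + HTF and 0.66 in IDD + HID, beside 0.03 and 0.00 over all measured genes. Cells of this class had median UMI counts of 6166 and 9866.5 in IDD + HTF and IDD + HID, against 3377 in IDD, and mitochondrial shares of 4.85% and 4.45%, against 7.24%. Small RNAs took 5.23% and 3.22% of its UMIs, against 8.72%. All 11 hepatocyte markers were detected in each library and summed to 1573 and 1719 CPM, against 1283 CPM. The part of these differences in the members' levels was not tested, except that with mitochondrial and small RNAs left out of the total 4 members, not 7, were called higher in IDD + HID, where 9.90% of all genes then were. Of the 13 other settings, the IDD + HID call was lost in 8 for Hspa1a, in 6 for Hspd1 and in 4 for Hspa8 and Hsp90aa1 each, and the IDD + HTF call in 6 for Hsp90aa1 and in 4 for Hspa1b. The Dnajb1 and Bag3 calls were lost in at most 3.

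The endothelial-like class was made of clusters that the 3 livers held in different proportions, and the members' levels differed between the clusters. Cluster 12, led by Cxcl10, Apold1, Gja1 and Iigp1, held 53.2% and 59.3% of the class in IDD + HTF and IDD + HID, against 19.7% in IDD. Cluster 1, led by Gpr182, Adam23, Cyp4b1 and Lyve1, held 36.7% and 28.4%, against 63.6%. The small cluster 8 held 10.1% and 12.3%, against 16.7%. The members themselves were left out of the genes used for clustering. Within the IDD library, Hspa1a had 877 CPM in cluster 12 and 352 CPM in cluster 1, Hspa1b had 1599 and 578 CPM, and Dnajb1 had 152 and 29.9 CPM, so the cluster that was more common in the iron-supplied livers was also the one with higher levels in the control.

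Within a single cluster fewer members passed the size for a call. Within cluster 1, 1 of 9 members was called higher in either iron-supplied liver, where 11.7% of all genes measured in that cluster were in IDD + HTF and 17.6% in IDD + HID. It was Dnajb1, at 85.0 and 58.8 CPM in IDD + HTF and IDD + HID, against 29.9 CPM in IDD. Within cluster 12, 4 of 9 were called higher in IDD + HTF, where 17.5% of genes were: Hspa1a 1.71-fold, Dnajb1 1.61-fold, Hsph1 1.61-fold and Bag3 1.62-fold. None of the 9 was called there in IDD + HID by the 1.5-fold rule, where 21.7% of genes were called higher and 17.3% lower, with Hspa1a at 916 CPM, against 877 CPM in IDD, and a log2 ratio of -0.52 for Hspa1b. With the clusters weighted equally in every library, 2 of 9 members were called higher in IDD + HTF, where 13.3% of genes were, and 1 in IDD + HID, where 18.3% were, and the log2 ratio of Hspa1a in IDD + HID was -0.053. Of the calls for endothelial-like cells in IDD + HID, Dnajb1 was the one also made within cluster 1. In cluster 8, with 2 members measured for IDD + HTF and 4 for IDD + HID, Hspa1b was called lower in both comparisons, where 9.49% and 9.44% of genes were.

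**Figure D4:**
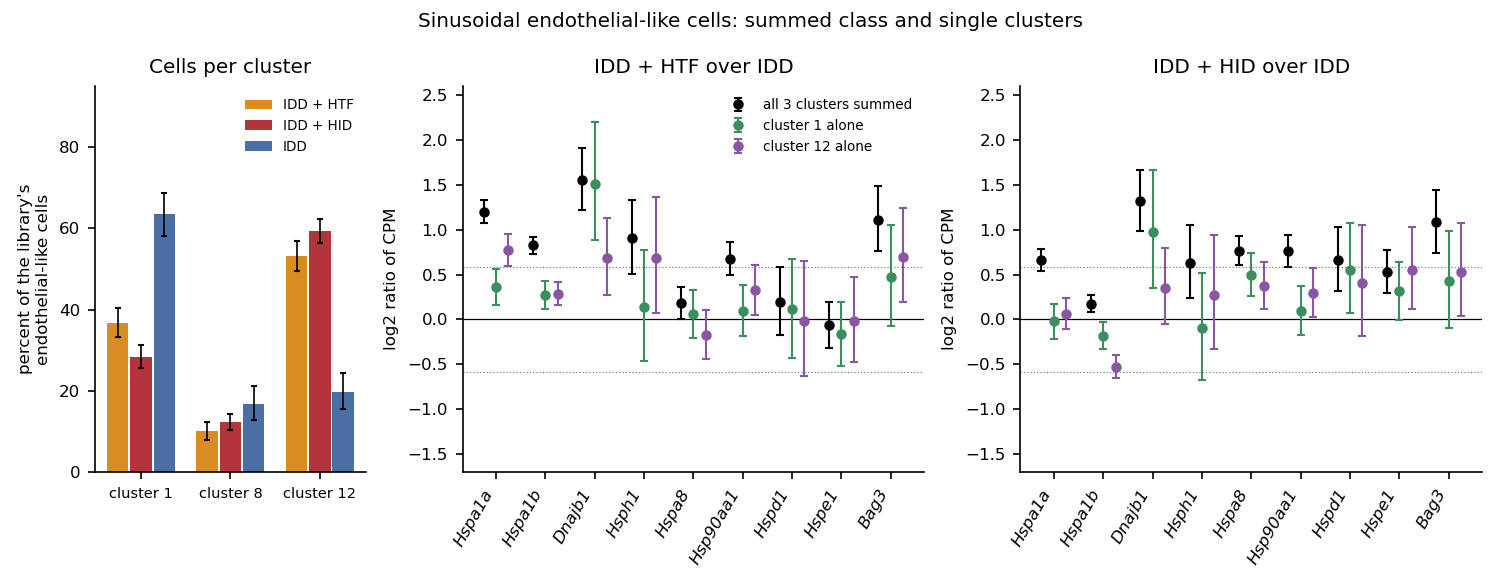
Left, percent of each library's sinusoidal endothelial-like cells in clusters 1, 8 and 12, with bars for IDD + HTF, IDD + HID and IDD. Right, log2 ratio of each member to IDD for the summed class, within cluster 1 and within cluster 12, with dotted lines at 1.5-fold and error bars, as on the left, for 95% counting intervals: Hspa1a in IDD + HID is at 0.66 for the class, -0.022 within cluster 1 and 0.06 within cluster 12.

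The ratios of B-like and endothelial-like cells are set side by side here as a description, since the direction was known when the genes were chosen and the intervals cover counting error only. The log2 ratio of IDD + HID over IDD in B-like cells minus that in endothelial-like cells was -5.26 for Hspa1a (95% interval -5.47 to -5.05), -4.46 for Hspa1b (-4.63 to -4.29) and -3.14 for Dnajb1 (-3.60 to -2.69). It was -1.96 for Hsp90aa1, -1.61 for Hsph1 and -1.46 for Hspa8. For Hspd1 it was -0.31 (-0.89 to 0.28), and for Hspe1 it was -0.69 (-1.04 to -0.34). For Bag3, with 3 UMIs in the B-like pair, the interval reached from -6.90 to 3.28. For IDD + HTF over IDD the difference was -2.54 for Hspa1a, -1.74 for Hspa1b, -1.92 for Dnajb1 and -1.25 for Hsp90aa1, and its interval included 0 for Hsph1, Hspd1, Hspe1 and Bag3. In IDD + HID the 6 cytosolic members with at least 50 UMIs in both classes thus stood below IDD in B-like cells and above it in endothelial-like cells, while Hspd1 stood above IDD in both.

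In the other lymphoid class, T-like cells, the IDD + HID ratio of Hspa1a lay between those of B-like and endothelial-like cells. Hspa1a had 843 and 379.6 CPM in IDD + HTF and IDD + HID T-like cells, against 1024 CPM in IDD, and Hspa1b had 1424 and 693 CPM, against 1605 CPM. In IDD + HID the HSP70 genes were lower, 2.70-fold for Hspa1a (2.41 to 3.01) and 2.31-fold for Hspa1b (2.12 to 2.52), and Dnajb1 was 1.57-fold lower at 259 CPM, against 406.5 CPM, a call lost under TMM scaling (log2 ratio -0.55). Hspd1 was 1.55-fold higher, at 248 CPM in IDD + HID, against 159.8 CPM in IDD. These were 3 of 8 measured members lower, where 9.33% of 6354 genes were, and 1 higher, where 13.7% were. In IDD + HTF the single call was Hspa8, at 552 CPM against 969 CPM in IDD, or 1.76-fold lower. That is 1 of 8 members lower, where 15.5% of 3865 genes were, and 0 higher, where 10.1% were, and the members' share with a lower call, at 1 of 8, was thus below that of all genes. The gap between IDD + HID and IDD in Hspa1a was wider in B-like than in T-like cells by 3.17 on the log2 scale (B-like minus T-like -3.17, interval -3.41 to -2.94). Sinusoidal endothelial markers in T-like cells summed to 166 and 774 CPM in IDD + HTF and IDD + HID with all 13 detected, against 24.9 CPM in IDD with 6 detected, and their part in these ratios was not tested. The class mixed clusters 11 and 17. Cluster 11 held 61 and 112 cells in IDD + HTF and IDD + HID, against 30 in IDD, too few to compare. Within cluster 17, 2 of 8 members were called lower and 1 higher in IDD + HID relative to IDD. The share of all genes was not taken there, so that count cannot be judged against it.

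Kupffer-like cells, the resident macrophages that recycle iron from red cells, had higher levels of several members in the IDD + HTF liver. Hspa1a had 847 and 763 CPM in IDD + HTF and IDD + HID, against 558 CPM in IDD. Dnajb1 had 228 and 112 CPM, against 129 CPM, and Bag3 had 70.6 and 49.9 CPM, against 34.8 CPM. In IDD + HTF, 4 of 9 members were called higher, where 13.3% of 9298 genes were, and 0 lower, where 5.74% were: Hspa1a 1.52-fold, Dnajb1 1.77-fold, Hsph1 1.78-fold and Bag3 2.03-fold. In IDD + HID, 2 of 9 were called higher, where 16.7% of 10167 genes were, and 0 lower, where 7.28% were, namely Hsph1 at 1.51-fold and Hspd1 at 1.5-fold. The class mixed 2 clusters, and cluster 22, led by Cxcl2 and Il1b, held 62 and 294 of its cells in IDD + HTF and IDD + HID, against 9 in IDD. Within the other, cluster 3, 5 of 9 members were called higher in IDD + HID, where 14.0% of the genes measured in that cluster were, among them Hspa1a at 1033 CPM, against 520 CPM in IDD. For IDD + HTF, 2 of 9 were called higher within cluster 3. The share of all genes was not taken for that comparison, so that count cannot be judged against it. Over the class, of 9 other settings, the call of Hspa1a in IDD + HTF was lost in 5, with a log2 ratio down to 0.32. The call of Hspd1 in IDD + HID was lost in 5, down to 0.48, and that of Hsph1 in 2, down to 0.37.

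Stellate-like cells, the retinoid-storing pericytes of the sinusoid, also had higher levels in the iron-supplied livers. Hspa1a had 815 and 714 CPM in IDD + HTF and IDD + HID, against 432 CPM in IDD, Dnajb1 had 139 and 157 CPM, against 66.9 CPM, and Hsp90aa1 had 271.5 and 384 CPM, against 173.5 CPM. In IDD + HTF, 6 of 9 members were called higher, where 22.1% of 6911 genes were, and 0 lower, where 10.8% were. In IDD + HID, 6 of 9 were called higher, where 29.3% of 7305 genes were, and 0 lower, where 16.0% were. Both counts held Hspa1a, Dnajb1, Hsp90aa1 and Bag3. Of 9 other settings, the IDD + HTF call was lost in 4 for Hsp90aa1, with a log2 ratio down to 0.30, in 2 for Bag3 and in 1 for Hspa1b. The IDD + HID call was lost in 3 for Hspe1 and in 1 each for Hspa1a, Hspa8 and Bag3, with Hspa1a at 0.27 when every cell was weighted equally. The Dnajb1 call held in all 9 in both livers. Markers of other cells were also higher: all 13 sinusoidal endothelial markers were detected in each library and summed to 11325 and 13209 CPM in IDD + HTF and IDD + HID stellate-like cells, against 3606 CPM in IDD, while Kupffer markers summed to 3454 and 2392 CPM, with all 12 detected, against 709 CPM, with 8 detected. Their part in the stellate-like ratios was not tested.

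Hepatocyte-like cells had the lowest HSP70 levels of the 6 classes and were the class in which both mitochondrial members were called. Hspd1 had 214 and 626 CPM in IDD + HTF and IDD + HID, against 247 CPM in IDD, and Hspe1 had 210.5 and 568 CPM, against 232 CPM. Both were higher in IDD + HID, 2.53-fold (2.07 to 3.13) and 2.45-fold (1.99 to 3.05), and near the control in IDD + HTF. Hspa8, at 86.4 and 259.9 CPM against 117 CPM, and Hsp90aa1, at 48.9 and 121 CPM against 62.8 CPM, were 2.22-fold and 1.93-fold higher in IDD + HID. Hspa1a was counted 28 and 56 times in IDD + HTF and IDD + HID, against 1 time in IDD, a ratio of 28.0 for IDD + HID with a counting interval from 4.82 to 1125. Hspa1b was counted 31 and 59 times, against 4 times, a ratio of 7.37 (2.73 to 28.0).

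That made 6 of 6 measured members called higher in IDD + HID hepatocyte-like cells, where 58.5% of all 2621 genes were also called higher, and 0 lower, where 13.5% were. The median log2 ratio of all genes in that comparison was 0.77, and that of the members was 1.32. Under TMM scaling, which puts the median of all genes at 0.15, the log2 ratio was 0.72 for Hspd1 and 0.68 for Hspe1, while Hspa8 at 0.53 and Hsp90aa1 at 0.33 were no longer called. At a clustering resolution of 0.5 Hspe1 was at 0.41 and not called. In IDD + HTF, 0 of 4 members were called higher, where 16.2% of 2755 genes were, and 0 lower, where 11.4% were, and the interval of the Hspd1 ratio, 0.700 to 1.08, included 1. The clusters of this class differed by library: cluster 2 held 311 and 9 cells in IDD + HTF and IDD + HID, against 87 in IDD, cluster 7 held 198 and 176, against 58, and cluster 25 held 0 and 43, against 0. Within cluster 7, 4 of 6 members were called higher in IDD + HID, where 40.0% of genes were, counting Hspa1a, which had 54 UMIs there and 0 in IDD. Small RNAs took 19.3% and 4.91% of the class's UMIs in IDD + HTF and IDD + HID, against 18.2% in IDD, and endothelial markers summed to 101 and 1248 CPM with all 13 detected, against 43.3 CPM with 5 detected. Their part in the hepatocyte-like ratios was not tested.

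**Figure D5:**
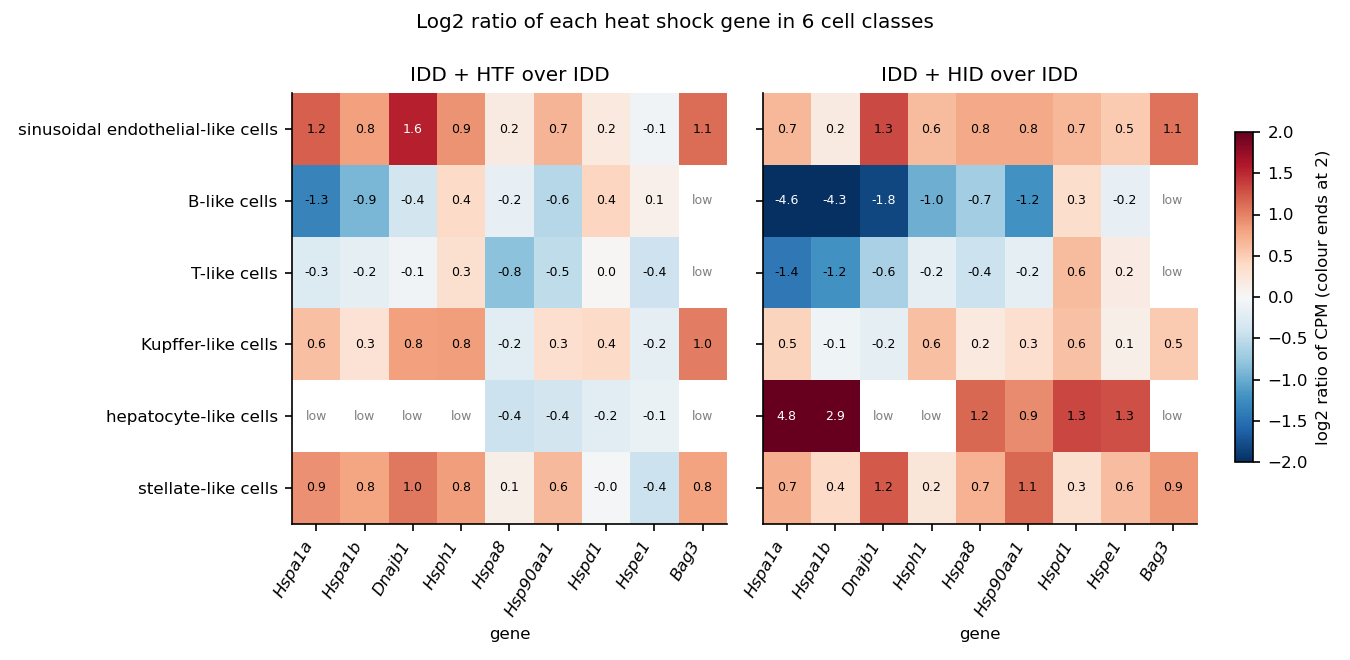
Log2 ratio to IDD of each of the 9 heat shock genes (columns) in 6 cell classes (rows), with a panel for IDD + HTF and one for IDD + HID. Cells marked "low" had under 50 UMIs in the pair, the colour scale ends at 2 in either direction, and the B-like row reaches -4.60 for Hspa1a in IDD + HID while the endothelial-like row is at 0.66.

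The order of the classes by Hspa1a level changed between libraries. In IDD + HTF, B-like cells were highest at 1467 CPM, followed by endothelial-like cells. Kupffer-like cells came next and did not differ from T-like cells beyond counting error, nor did T-like from stellate-like cells. In IDD + HID, Kupffer-like cells were highest at 763 CPM, endothelial-like and stellate-like cells followed and did not differ beyond counting error, and B-like cells came next to last. In IDD, B-like cells were highest at 3710 CPM, followed by T-like cells at 1024 CPM and Kupffer-like cells, and endothelial-like and stellate-like cells did not differ beyond counting error. Hepatocyte-like cells were lowest in all 3 libraries.

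The high-iron diet and holo-transferrin livers were also set against each other. In B-like cells 5 of 8 members were called lower in IDD + HID than in IDD + HTF, where 5.72% of 6604 genes were, and 0 higher, where 14.2% were. Hspa1a was 9.62-fold lower (8.51 to 10.9), Hspa1b 10.4-fold (9.40 to 11.4), Dnajb1 2.75-fold, Hsph1 2.56-fold and Hsp90aa1 1.55-fold. In endothelial-like cells 1 of 9 members was called lower, where 11.5% of 12791 genes were, and 1 higher, where 5.00% were. These were Hspa1b, 1.57-fold lower, and Hspe1, 1.51-fold higher, with Hspa1a at 1.46-fold lower and Hspa8 at a log2 ratio of 0.58 just short of a call. Both endothelial-like calls lay near the limit: that of Hspe1 was lost in 6 of 13 other settings and that of Hspa1b in 3, while in B-like cells the Hsp90aa1 call was lost with cells of at most 10% mitochondrial UMIs (log2 ratio -0.57). Lower levels in IDD + HID than in IDD + HTF were not particular to B-like cells. In T-like cells the log2 ratio was -1.15 for Hspa1a and -1.04 for Hspa1b, but 0.62 for Hspd1. In Kupffer-like cells it was -1.02 for Dnajb1, but 0.41 for Hspa8. Plasmacytoid dendritic-like cells, with 72 cells in IDD + HTF, 123 in IDD + HID and too few in IDD, had 183 CPM of Hspa1a in IDD + HID, against 523 CPM in IDD + HTF, or 2.86-fold lower (2.43 to 3.38), and 171 CPM of Hspa1b, against 661 CPM, or 3.86-fold lower. All 3 comparisons between livers use the same 3 libraries and are not independent of each other.

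Related chaperones were read from lists of cytosolic, chaperonin, mitochondrial and endoplasmic reticulum (ER) genes. Listed genes were called in the summed endothelial-like class only, not within its clusters, whose proportions differed between the livers. In endothelial-like cells, 5 of 28 measured cytosolic chaperones and co-chaperones outside the members were called higher and 0 lower in IDD + HTF, led by Dnajb4 (1.72-fold), Dnaja4 (1.7-fold, with 49 and 7 UMIs in IDD + HTF and IDD) and Dnaja1 (1.68-fold), all J-domain proteins. In IDD + HID, 10 of 29 were called higher and 1 lower, with Cryab, a small heat shock protein, 6.56-fold higher on 56 and 1 UMIs in IDD + HID and IDD (interval 1.13 to 264), Hspb1, another, 2.80-fold lower, and Dnaja1 1.97-fold higher. In B-like cells, 4 of 18 were called higher and 0 lower in IDD + HTF, with the calcyclin-binding protein gene Cacybp at 2.16-fold, and 4 of 20 higher and 4 lower in IDD + HID, where Dnajb4 was 3.42-fold and Dnaja1 2.68-fold lower and Dnaja2 1.93-fold higher. The J-domain gene Dnaja1 was thus lower in B-like and higher in endothelial-like cells of the IDD + HID liver. The shares of all genes called higher and lower, given above, were 9.97% and 9.79% in IDD + HTF and 14.6% and 19.3% in IDD + HID endothelial-like cells, and 10.8% and 8.26% in IDD + HTF and 18.8% and 8.58% in IDD + HID B-like cells.

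The remaining chaperone systems gave few calls, many of them at a share near that of all genes, and single genes are given as values only. Of all genes, 9.97% and 14.6% were called higher in IDD + HTF and IDD + HID endothelial-like cells, and 9.79% and 19.3% lower. In B-like cells 10.8% and 18.8% were called higher, and 8.26% and 8.58% lower. Of the 14 subunits of the cytosolic chaperonin TRiC and prefoldin, 1 was called higher in IDD + HTF and 2 in IDD + HID endothelial-like cells, with Pfdn1 at 1.97-fold and 2.19-fold, and 1 of 13 and 1 of 14 were in B-like cells. Of the mitochondrial chaperones and proteases, 2 of 9 and 1 of 9 were called higher in IDD + HTF and IDD + HID endothelial-like cells, with Grpel1, a nucleotide exchange factor of mitochondrial HSP70, at 1.59-fold and 2.04-fold. In B-like cells Hspa9, the mitochondrial HSP70, was 2.83-fold higher in IDD + HID and was the single higher call among 6. ER chaperones gave 1 and 2 higher calls of 13 in endothelial-like cells, among them Dnajb9 at 1.5-fold and 2.12-fold. In B-like cells they gave 0 of 10 higher and 1 lower in IDD + HTF and 2 of 12 higher in IDD + HID. Among the heat shock factors, Hsf2 was 2.43-fold (1.71 to 3.42) and 2.41-fold (1.76 to 3.26) lower in IDD + HTF and IDD + HID endothelial-like cells. In IDD + HID B-like cells it was 1.53-fold lower on 42 and 11 UMIs in IDD + HID and IDD, with an interval that included 1 (0.710 to 3.02). Hsf1, the stress-activated factor, was 1.5-fold lower in IDD + HID endothelial-like cells, with an interval close to 1 (1.05 to 2.10). For ubiquitin and aggregate clearance, 0 of 10 genes in IDD + HTF and 4 of 10 in IDD + HID were called higher in endothelial-like cells, led by the autophagy receptor gene Sqstm1 (1.89-fold), while in B-like cells 1 of 7 was higher and 1 lower in IDD + HTF and 1 of 8 higher in IDD + HID.

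Immediate early genes, which dissociation of tissue also raises, were mostly called higher in endothelial-like cells and, where called in B-like cells, more often lower. In endothelial-like cells 15 of 20 were called higher and 0 lower in IDD + HTF, led by Egr2 (2.52-fold), Fosb (2.38-fold) and Fos (2.08-fold), and 16 of 20 higher and 0 lower in IDD + HID, led by Fosb (8.31-fold), Fos (3.38-fold) and Atf3 (2.99-fold). Of all genes there, 9.97% and 14.6% were called higher in IDD + HTF and IDD + HID, and 9.79% and 19.3% lower. In B-like cells 2 of 16 were called higher and 4 lower in IDD + HTF, and 1 of 17 higher and 7 lower in IDD + HID, led by Jun (5.80-fold lower), Atf3 (2.82-fold lower) and Dusp1 (2.52-fold lower). Of all genes in B-like cells, 10.8% and 18.8% were called higher in IDD + HTF and IDD + HID, and 8.26% and 8.58% lower. Between the iron-supplied livers, 9 of 20 were called higher and 1 lower in IDD + HID endothelial-like cells relative to IDD + HTF, where 5.00% of all genes were higher and 11.5% lower. In B-like cells 0 of 17 were called higher and 5 lower, where 14.2% of all genes were higher and 5.72% lower. The part of dissociation in the members' levels was not tested. The endothelial-like calls of immediate early genes are again those of the summed class, and the part of its cluster proportions in them was not tested.

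The members' levels were compared with those of Hspa1a and of Hspd1 over 18 points, 6 classes in each of 3 libraries, which share libraries and depth. On log2(CPM + 10), Hspa1a correlated with Hspa1b at r = 0.99, with Dnajb1 at 0.89, with Hsp90aa1 at 0.85, with Hsph1 at 0.78 and with Hspa8 at 0.75. Its correlation was 0.24 with Bag3, -0.08 with Hspe1 and -0.55 with Hspd1. Hspd1 in turn correlated with Hspe1 at 0.80, with Bag3 at -0.63 and with the other cytosolic members between -0.56 (Hspa1b) and -0.05 (Hspa8). Other pairs of members, such as Hspe1 with Hspa8 or Hsp90aa1, were not compared, so separate groups of members are not shown. Of 7276 genes compared, those outside the members with the pattern most like Hspa1a were AC149090.1, Ppp1r15a, Fbxo33, Abi1 and Paf1, with r between 0.91 and 0.92. Such a likeness over all points need not hold within a class. In endothelial-like cells AC149090.1 had 274 and 200 CPM in IDD + HTF and IDD + HID, against 361 CPM in IDD, whereas Hspa1a was lowest in IDD. Among those most like Hspd1 were Uqcrfs1, Atp5d, 2410015M20Rik and Atp5b, with r between 0.92 and 0.96.

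Between single cells of a class, after each was reduced to 1000 UMIs, Hspa1a and Hspa1b correlated at r = 0.40 and 0.41 in IDD + HTF and IDD + HID endothelial-like cells and 0.42 in IDD. In B-like cells the correlation was 0.56 in IDD + HTF and 0.28 in IDD + HID, compared with 0.45 in IDD. The correlation was positive in both classes and lowest in B-like cells of IDD + HID, where both genes were rarest.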

How the data were processed

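The deposited files, 1 set per mouse, hold raw UMI counts per gene and barcode as the authors deposited them, for 3 libraries of 10x 3′ single-cell RNA. The submitters' processing notes name genome build GRCm38 and Seurat 4. Any aligner, counter, treatment of multi-mapped reads or filter is not given in the sources used here. In all, 55240 of the 55421 gene identifiers were matched to a GRCm38 annotation for symbols, 54673 of them with the same version.

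Barcodes with at least 1000 UMIs, 300 genes and at most 20% mitochondrial UMIs were kept (3208, 3545 and 1334 in IDD + HTF, IDD + HID and IDD). Scrublet in scanpy 1.11.5, with 6% doublets expected, marked 0.156%, 0.197% and 1.72% of them, which were removed. In the first 2 libraries that is too few for the caller to have worked, so doublets may remain. Counts scaled to 10000 per cell were clustered on 2000 variable genes, with the 9 genes and all listed genes left out (30 components, 15 neighbours, Leiden resolution 1). A cluster was named "-like" where the mean log2 excess of at least 3 detected markers, with 20 CPM added, was at least 1 and led the next type by 0.5. These limits were set after the cluster profiles had been seen. Unnamed clusters held 982, 588 and 365 cells in IDD + HTF, IDD + HID and IDD. Rebuilt names can differ from those of the study.

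UMIs were summed per class and library. CPM carry exact Poisson intervals, ratios exact conditional binomial intervals, and shares of cells Clopper-Pearson intervals, all at 95%. Share estimates at 1000 UMIs are hypergeometric expectations. No test was run, since each group is 1 mouse. In place of a gene list's test, its calls and median stand beside those of all genes with at least 50 UMIs in the same pair. A symbol was named if it was a member, one of up to 3 list genes per comparison with the largest called ratio, or one of the 5 genes most like Hspa1a or Hspd1 over log2(CPM + 10), among genes averaging at least 20 CPM. Cluster-leading genes and examples of pseudogenes are named too, and 1 gene that the rule would name is not reported here. Interval code was tested on simulated data. Members and lists were chosen with earlier results of these data known. Alternatives were TMM scaling (edgeR 4.0.16), median-of-ratios scaling, a total without mitochondrial and small RNAs, the mean over cells, stricter cell filters (2000 UMIs, 10% mitochondrial UMIs), kept doublet calls, resolution 0.5, subtraction of free RNA, a 2-fold rule, no minimum of UMIs and values within clusters; equal weights for endothelial clusters were added after the data had been seen. Sequences are RefSeq's.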

Additional observations from a re-analysis of the deposited data

Results flagged for a closer look

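The ratio to IDD pointed one way in B-like cells and the other way in sinusoidal endothelial-like cells for several of the 9 genes. Each value below is the log2 ratio in B-like cells minus that in endothelial-like cells. With 1 mouse per group the difference was not tested, and the direction had been named when the genes were chosen. For IDD + HTF over IDD the value was -2.54 for Hspa1a, -1.74 for Hspa1b, -1.92 for Dnajb1 and -1.25 for Hsp90aa1. For IDD + HID over IDD it was -5.26 for Hspa1a, -4.46 for Hspa1b, -3.14 for Dnajb1, -1.61 for Hsph1, -1.46 for Hspa8 and -1.96 for Hsp90aa1. For IDD + HID over IDD + HTF, opposite signs were found for Hspa8 (-1.11), Hsp90aa1 (-0.71) and Hspe1 (-0.85). The 3 pairs share libraries, and counts of Hspa8 and Hspe1 are uncertain because their 3′ ends resemble pseudogenes.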

How the results depend on the processing

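The count of 6 lower calls in IDD + HID B-like cells was 4 under the 2-fold rule, 7 with no minimum of UMIs and 6 under the other settings tried there. Among the altered settings, the share of all genes was taken only without mitochondrial and small RNAs, with equal cluster weights and within some clusters. Counts under the other settings, those in B-like cells included, cannot be set against the share of all genes. Lower calls relative to IDD in the endothelial-like class stayed at 0 except within cluster 8. In B-like cells the log2 ratio of Hspa1a ranged from -4.86 to -4.50 for IDD + HID and from -1.46 to -1.16 for IDD + HTF. The higher calls in endothelial-like cells were less stable. For IDD + HID, 7 became 4 with mitochondrial and small RNAs left out of the total, 4 at clustering resolution 0.5, 2 under the 2-fold rule and 1 with endothelial clusters weighted equally. For IDD + HTF, 6 became 3 under the 2-fold rule and 2 with equal weights. For IDD + HTF in B-like cells, higher calls went to 1 under TMM scaling and 1 with no minimum of UMIs, and lower calls to 1 under the 2-fold rule and 3 with the stricter cell filters or free RNA subtracted. Equal weights turned the log2 ratio of Hspa1a for IDD + HID in endothelial-like cells to -0.053. Within cluster 1 it was -0.022, and that of Hsph1 was -0.10. Within cluster 8, with few UMIs, Hspa1a was at -1.83 for IDD + HID, and for IDD + HTF Hspa1a was at -0.90, Hspa1b at -0.65 and Hsp90aa1 at -0.25. TMM scaling put the median log2 ratio of all genes in IDD + HID endothelial-like cells at 0.27 and median-of-ratios scaling at 0.28, from 0.00. Apart from the cluster weights and the 2-fold rule, whose construction changes the counts, the cause was not tested. Free RNA subtraction gave no value for hepatocyte-like cells. Depth limits Bag3 in lymphoid classes and the HSP70 genes in IDD hepatocyte-like cells. No paired analysis was possible because each group has 1 sample, and no replicate could be left out.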
